A study of Mus musculus with 20 samples.

Results

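The difference between diets in skin that received only vehicle was read from 10 of the 20 arrays of the series: 5 abdominal skins of mice fed a high fat diet (HFD-vehicle) against 5 abdominal skins of mice fed a control chow diet (CD-vehicle). The arrays were chosen by their sample titles. All mice were C57/B6, 9 weeks old, and had the abdomen shaved. The vehicle was applied once a day for 5 days, 62.5 mg at a time, and the mice were killed 24 h after the last application. The other 10 arrays are 5 CD-IMQ and 5 HFD-IMQ skins, which received a 5% cream of imiquimod (IMQ), an agonist of Toll-like receptor 7 that causes a psoriasis-like inflammation, in place of the vehicle. These 10 enter here through the shared estimate of the spread, through the choice of the brightest feature for the 1082 genes with more than 1, and as a separate reading of the same diet contrast in other mice. The labels do not state the sex of the mice, the composition and length of the high fat diet, or the hour of sampling. The titles number the mice of a group as biological replicates, so that each array is 1 mouse.

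Skin is a mixture of epidermis, hair follicles, sebaceous glands, dermis, fat, muscle and leukocytes, and several of its gene programmes run in cycles or in bursts. Immediate-early genes, such as those of the FOS, EGR and NR4A families, are transcribed within minutes of a growth signal, a stress or a mechanical stimulus, and many of their products are transcription factors or feedback inhibitors that end the response. Hair follicles pass through growth (anagen), regression and rest (telogen); the keratins and trichohyalin of the inner root sheath and the keratins and keratin-associated proteins of the shaft are made in the growing follicle. Keratinocytes that are stressed or wounded switch on the keratins Krt6, Krt16 and Krt17, small proline-rich proteins and late cornified envelope proteins. A high fat diet is known to lower the genes of fatty acid synthesis in many tissues. Since whole skin was measured, more cells of a type and more RNA per cell cannot be told apart.

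Expression was measured on Affymetrix gene arrays and is given throughout as the deposited log2 value, on which a difference of 1 is a 2-fold change of the signal. Of 41345 array features, 23521 carried exactly 1 gene symbol. They stood for 22180 genes, each represented by its brightest feature. The median of an array lay between 2.86 and 3.04 and its highest value between 12.9 and 13.1, so that genes with values near 3 are close to the background. A group mean at or below 2.94, the median of all values, is called dim. Where only 1 group of a named called gene was dim, the difference of the other group from 2.94 is given as a lower bound ("at least"). Of the called genes, 53 had a dim group mean, and 13 of these were dim in both groups, where no such bound exists. The number of arrays, not a read depth, limits the precision: the standard error of a diet difference had a median of 0.136. Skin markers were bright on all 10 arrays, among them Krt10 at 11.1 on CD and 11.5 on HFD, Col1a1 at 10.8 and 10.9 and Dcn at 11.5 and 11.5, whereas the non-skin genes Ins2, Prm1, Gfap, Myh6 and Umod had group means between 2.24 and 3.19. Differences were tested with limma over all 20 arrays, with Benjamini-Hochberg adjustment over the 22180 genes, and a gene is said to have risen or fallen on HFD where its adjusted p was below 0.05. Errors of differences are standard errors (SE) from this fit. The SE and the p-value of a gene rest on its spread between mice of the same group, pooled over the 4 groups and moderated across genes.

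In vehicle skin 483 genes differed between the diets, 2.18% of those tested: 271 rose on HFD (1.22%) and 212 fell (0.956%). The median difference of all genes was -0.008. Among the called genes, 128 rose and 42 fell by at least 1 on the log2 scale, and 35 rose and 12 fell by at least 2. In 874 genes (3.94%) the 5 values of one diet all lay above the 5 of the other, and 336 of these (1.51% of all) were also called. Among the 12 largest rises without overlap, predicted genes and small RNAs left out, all but Krt16 were members of the inner root sheath or keratin-associated protein list, and among the 12 largest falls all but Errfi1 and Fasn were members of the immediate-early list. The count depended on the arrays. A fit of the 10 vehicle arrays alone called 137 genes (53 higher and 84 lower), of which 128 were among the 483. That fit has fewer degrees of freedom and takes the spread from the vehicle arrays only. The list mean of hair shaft keratins had an SD of 1.60 on HFD-vehicle, 0.098 on CD-vehicle, 0.035 on CD-IMQ and 0.13 on HFD-IMQ. For fatty acid and triglyceride synthesis it was 0.14, 0.31, 0.38 and 0.65 in the same order. What the spread and the degrees of freedom each added to the drop was not tested. With 1 array left out, the count fell to 231 without CD-vehicle 3, to 260 without HFD-vehicle 1, to 305 without HFD-vehicle 3 and to 312 without CD-vehicle 5, and 196 genes were called whichever vehicle array was left out. HFD-vehicle 3 stood apart most, holding 42.8% of the squared distance of the HFD-vehicle arrays from their mean, and CD-vehicle 3 held 28.4% of that of its group. Of the 483 genes, 126 belong to at least 1 of 44 lists of skin cell types, pathways and complexes with 926 measured genes. Counts of called list members below are to be set beside the shares of all genes, 1.22% higher and 0.956% lower.

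**Figure D1:**
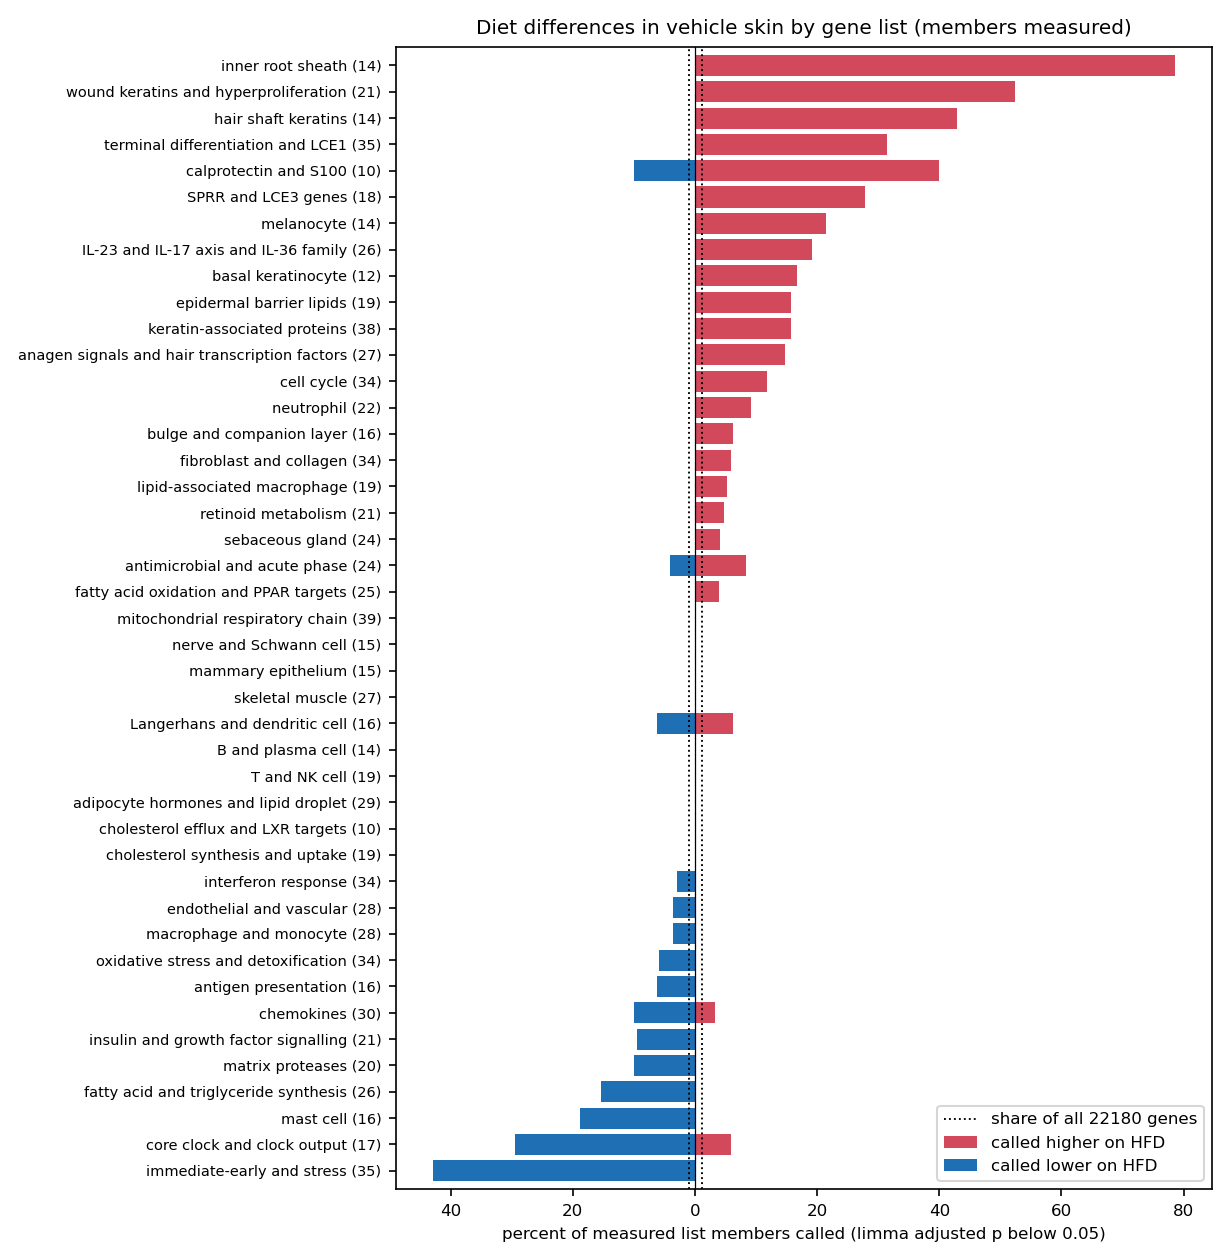
Share of the measured members of each list with 10 or more measured genes that rose (red, to the right) or fell (blue, to the left) on HFD in vehicle skin, in percent, with the number measured in brackets. Dotted lines mark the share over all 22180 genes, 1.22% higher and 0.956% lower. The inner root sheath list (11 of 14 higher) and the immediate-early list (15 of 35 lower) stand at the ends.

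Immediate-early genes fell on HFD: 15 of the 35 measured members of the immediate-early and stress list were called lower, none was called higher, and the median difference was -0.54. The background share of genes called lower was 0.956%. Nr4a1, an orphan nuclear receptor induced by many stimuli, had values of 8.37, 8.54, 8.21, 6.03 and 5.74 on the CD-vehicle arrays and 4.17, 4.42, 4.15, 4.14 and 3.85 on the HFD-vehicle arrays, in the order of replicates 1 to 5. All HFD values lay below all CD values, and CD-vehicle 4 and 5 were well below the other CD arrays. Nr4a1 fell by 3.23 ± 0.39, a 9.41-fold difference (limma adjusted p = 6.21e-05). Ccn1, a secreted matricellular protein also called Cyr61, read 9.19, 9.35, 9.06, 8.33 and 7.40 on the CD-vehicle arrays and 5.52, 5.76, 6.05, 4.86 and 6.20 on the HFD-vehicle arrays. It was lower on every HFD array and fell by 2.99 ± 0.30 (limma adjusted p = 1.1e-05).

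Of the subunits of the AP-1 transcription factor, Fos, Fosb, Jun and Junb fell. Fos gave 8.05, 8.33, 8.55, 8.06 and 7.10 on the CD-vehicle arrays and 5.63, 5.83, 5.89, 3.92 and 5.93 on the HFD-vehicle arrays. The groups did not overlap, HFD-vehicle 4 was the lowest at 3.92, and Fos fell by 2.58 ± 0.41 (limma adjusted p = 0.0013). Fosb, its close relative, ranged from 5.44 to 7.03 on CD and 3.66 to 4.22 on HFD and fell by 2.22 ± 0.24 (limma adjusted p = 1.92e-05). Jun, the partner of FOS in the AP-1 dimer, ranged from 6.82 to 7.58 on CD and 6.03 to 6.59 on HFD and fell by 1.05 ± 0.15. Junb fell by 1.44 ± 0.32 with overlapping groups, 6.70 to 8.95 on CD and 6.16 to 6.94 on HFD; its adjusted p was 0.0177, and 0.103 in the fit of the 10 vehicle arrays alone. Jund, which is made constitutively in many cells, had a difference of -0.28 ± 0.14 (limma adjusted p = 0.369) and was not called.

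Atf3, a stress-induced member of the ATF/CREB family, read 7.87, 7.67, 8.53, 6.37 and 6.28 on the CD-vehicle arrays and 4.88, 5.05, 4.77, 4.95 and 4.84 on the HFD-vehicle arrays. Egr1, a zinc finger factor that growth factors induce through the serum response factor, read 8.67, 8.72, 8.51, 7.59 and 6.24 on the CD-vehicle arrays and 5.57, 5.67, 6.19, 4.95 and 5.65 on the HFD-vehicle arrays. For both genes the 5 HFD arrays lay below all CD arrays, narrowly so for Egr1, where CD-vehicle 5 read 6.24 and HFD-vehicle 3 read 6.19. Atf3 fell by 2.44 ± 0.32 and Egr1 fell by 2.34 ± 0.35 (limma adjusted p = 0.000145 and 0.000725). Klf2, a Krüppel-like factor of endothelium and leukocytes, fell by 1.71 ± 0.20, whereas Klf4, the Krüppel-like factor of differentiating epidermis, fell by 0.55 ± 0.15 with overlapping groups and lost its call when any 1 of 9 vehicle arrays was left out. Of the NR4A receptors, Nr4a2 and Nr4a3 were not called, with differences of -0.38 ± 0.17 and -0.86 ± 0.28. The heat shock genes Hspa1a and Hspa1b, on the same list, were not called either, with 0.054 ± 0.16 and 0.38 ± 0.13.

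Dusp1, a phosphatase that inactivates MAP kinases, read 9.49, 9.67, 9.77, 9.01 and 8.21 on the CD-vehicle arrays and 6.53, 6.94, 6.80, 6.12 and 7.06 on the HFD-vehicle arrays. Zfp36 (tristetraprolin), which triggers decay of AU-rich messenger RNAs, read 8.50, 8.78, 9.21, 8.04 and 7.25 on the CD-vehicle arrays and 5.95, 6.28, 6.40, 5.59 and 6.36 on the HFD-vehicle arrays. In neither gene did the groups overlap, and CD-vehicle 5 was the lowest CD array in both. Dusp1 fell by 2.54 ± 0.30 and Zfp36 fell by 2.24 ± 0.27 (limma adjusted p = 4.48e-05 and 6.31e-05). Btg2, an antiproliferative adaptor of mRNA deadenylation, fell by 2.06 ± 0.30. Ier2, an immediate-early nuclear protein, fell by 2.04 ± 0.34. Errfi1, an inhibitor of the EGF receptor that is on none of the lists, fell by 2.15 ± 0.26, with values of 8.17 to 9.81 on CD and 6.35 to 7.33 on HFD. Tsc22d3, a glucocorticoid-induced leucine zipper gene, fell by 0.62 ± 0.14 and lost its call when any 1 of 4 arrays was left out. Fkbp5, Sgk1 and Zbtb16, which are only some of the glucocorticoid targets, were not called, with differences of -0.19, -0.54 and 0.12. Klf9 and Ddit4, also among such targets, were called lower, with differences of -0.56 and -0.93. Their calls were lost when any 1 of 6 and 9 vehicle arrays was left out, respectively. The targets were not counted as a set. A response to glucocorticoid was not tested.

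The number of calls in this list changed little. Leaving out any 1 vehicle array gave 12 to 16 called members, the 10 vehicle arrays alone gave 13, and the mean log2 value of the 35 genes was 6.82, 6.82, 6.79, 6.19 and 5.92 on the CD-vehicle arrays and 5.50, 5.54, 5.76, 5.34 and 5.51 on the HFD-vehicle arrays. The groups did not overlap on this mean, and within CD the arrays 4 and 5 stood below arrays 1 to 3.

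**Figure D2:**
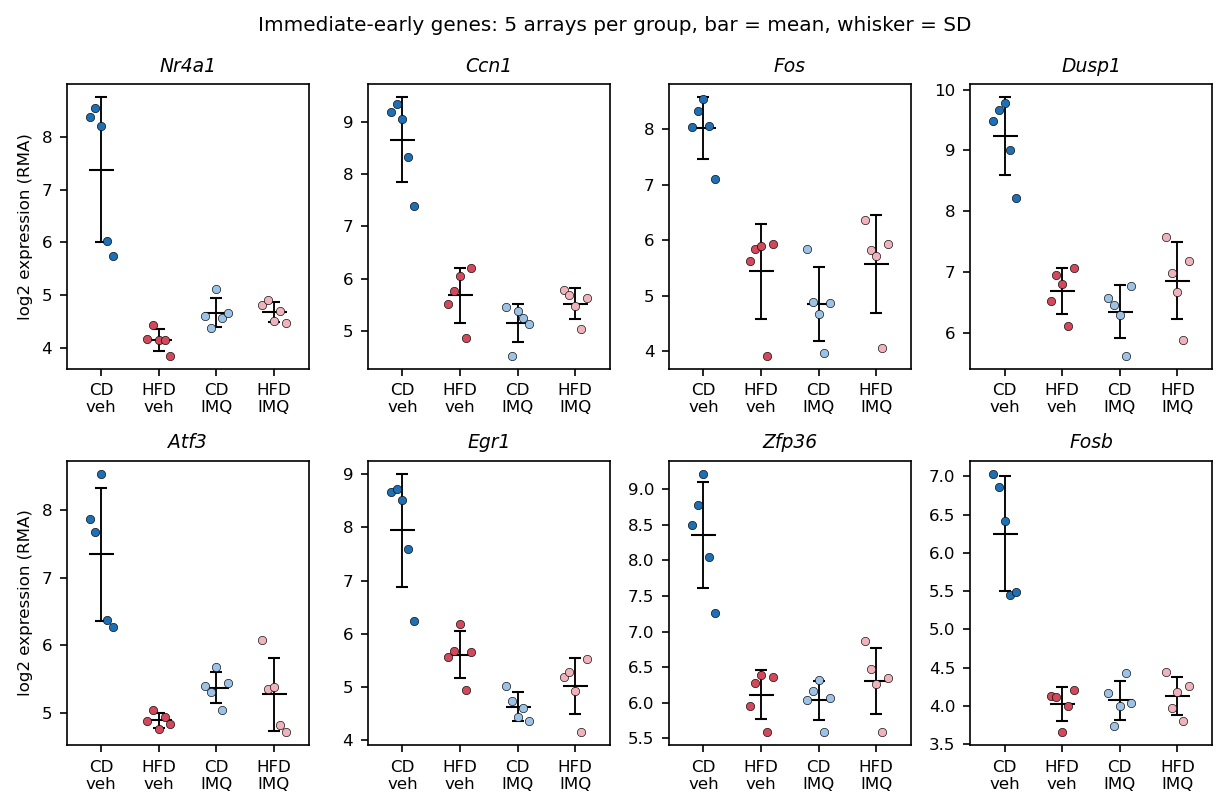
Deposited log2 values of 8 members of the immediate-early and stress list on every array of the 4 groups, 5 points per group; the horizontal bar is the mean and the whisker 1 SD, and axes do not start at 0. In each panel all 5 HFD-vehicle points lie below all 5 CD-vehicle points, for example Nr4a1 at 3.85 to 4.42 against 5.74 to 8.54, and the IMQ groups are shown for comparison.

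The promoters of the 5 list members that fell most are shown because many immediate-early genes are known targets of CREB, which binds the cAMP response element TGACGTCA, whose core is TGACG. Each line is the 250 bases upstream of the RefSeq start (build GRCm38.p6), 5′ to 3′ on the strand of the gene, with every match to the element or its core, on either strand, in capitals (a core on the other strand reads CGTCA). The stretches are Nr4a1 at chr15:101266596-101266845 (plus strand), Ccn1 at chr3:145649986-145650235 (minus strand), Fos at chr12:85473640-85473889 (plus strand), Dusp1 at chr17:26508473-26508722 (minus strand) and Atf3 at chr1:191183334-191183583 (minus strand).
Nr4a1: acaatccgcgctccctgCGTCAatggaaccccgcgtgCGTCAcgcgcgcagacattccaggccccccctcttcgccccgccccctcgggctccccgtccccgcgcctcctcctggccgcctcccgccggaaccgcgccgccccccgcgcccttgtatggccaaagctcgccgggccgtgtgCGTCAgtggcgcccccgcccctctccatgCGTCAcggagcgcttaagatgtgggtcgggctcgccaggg
Ccn1: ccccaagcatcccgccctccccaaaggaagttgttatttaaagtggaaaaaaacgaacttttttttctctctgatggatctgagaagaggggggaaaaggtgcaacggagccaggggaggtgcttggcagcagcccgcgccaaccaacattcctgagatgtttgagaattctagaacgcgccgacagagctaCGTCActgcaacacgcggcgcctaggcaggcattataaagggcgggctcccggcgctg
Fos: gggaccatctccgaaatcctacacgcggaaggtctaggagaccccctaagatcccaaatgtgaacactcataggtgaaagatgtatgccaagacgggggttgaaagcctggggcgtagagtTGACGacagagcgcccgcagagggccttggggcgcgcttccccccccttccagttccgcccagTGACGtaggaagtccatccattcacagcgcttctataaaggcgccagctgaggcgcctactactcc
Dusp1: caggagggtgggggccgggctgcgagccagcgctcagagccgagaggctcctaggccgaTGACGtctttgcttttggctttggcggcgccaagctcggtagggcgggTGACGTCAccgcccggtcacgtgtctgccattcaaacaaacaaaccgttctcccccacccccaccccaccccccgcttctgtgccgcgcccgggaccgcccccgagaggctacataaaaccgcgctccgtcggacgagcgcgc
Atf3: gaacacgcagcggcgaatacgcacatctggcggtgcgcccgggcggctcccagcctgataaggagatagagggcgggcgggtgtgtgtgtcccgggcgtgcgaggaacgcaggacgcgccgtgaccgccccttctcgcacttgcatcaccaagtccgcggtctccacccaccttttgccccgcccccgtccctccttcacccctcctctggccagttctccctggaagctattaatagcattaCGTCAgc

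The core was found in the upstream 250 bases of 10 of the 13 called members of the list that have a promoter in the table, in 5 of the 17 members that were not called, and in 20.9% of the 16990 promoters of genes tested on the array (17.9% of all 27025 promoters in the table). It occurred in 31.9% of the 163 promoters of all genes that fell and in 17.8% of the 202 promoters of genes that rose. The full element was present in 2 of the 13, Btg2 and Dusp1, against 2.11% of the tested genes and 1.62% of all promoters, and the CArG box of the serum response factor, searched on both strands, in 1 of the 13, Zfp36, against 1.29% and 1.4%. Nr4a1 held 4 separate cores, at 233, 213, 69 and 40 bases upstream of the start, and in Dusp1 the full element lay 143 to 136 bases upstream. These are matches of letters, and binding of a factor was not measured. Only exact matches within 250 bases were searched. Sites further upstream, sites with a mismatch and members without a promoter in the table were not read, so that the counts cannot set 1 factor above the other.

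Among 472 microRNA gene features, 5 fell and none rose; this share of 1.06% is near the 0.956% of all genes that fell. Mir23a and Mir27a, which lie next to each other in 1 cluster, were among them. Mir23a read 3.92, 4.79, 4.36, 4.61 and 4.26 on the CD-vehicle arrays and 2.46, 3.44, 3.07, 2.80 and 2.80 on the HFD-vehicle arrays. Mir27a read 5.38, 5.90, 5.35, 5.40 and 5.43 on the CD-vehicle arrays and 3.42, 4.18, 4.06, 4.40 and 4.17 on the HFD-vehicle arrays. The groups overlapped in neither, and Mir23a, dim on HFD, fell by at least 1.45 and Mir27a fell by 1.44 ± 0.22 (limma adjusted p = 0.00169 and 0.000811). Mir23b, on another chromosome, fell by 0.84 ± 0.22 with overlapping groups and an adjusted p of 0.0498, which was 0.135 in the 10-array fit, and its call was lost when any 1 of 6 arrays was left out; it is near-identical to Mir23a in part of its sequence, and the features may not separate the copies. Mir5123 fell by 3.08 ± 0.50, with values of 8.17, 8.39, 8.78, 5.62 and 5.13 on CD and 3.87, 4.68, 3.88, 3.99 and 4.29 on HFD. The features do not tell the arms or the precursor from the mature form. The mature sequences from RefSeq are given with the seed, bases 2 to 8, in capitals, to show that the 3p arms of miR-23a and miR-27a carry different seeds that share their leading letters; they lie at chr8:84208563-84208583 and chr8:84208727-84208747 on the plus strand (GRCm38.p6).
mmu-miR-23a-3p: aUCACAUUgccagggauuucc
mmu-miR-27a-3p: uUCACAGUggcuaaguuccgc
mmu-miR-5123: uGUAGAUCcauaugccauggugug

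The core clock and clock output list had more falls than rises: 5 of 17 members fell, 1 rose, and the median difference was -0.39. Of all genes 0.956% fell and 1.22% rose. Dbp, a PAR-domain factor that is a direct output of the clock, read 7.29, 7.34, 7.14, 7.29 and 7.22 on the CD-vehicle arrays and 6.78, 6.27, 6.35, 6.58 and 6.32 on the HFD-vehicle arrays. Its groups did not overlap, and it fell by 0.79 ± 0.14 (limma adjusted p = 0.00242). Per1, a repressor of the clock that is itself inducible as an immediate-early gene, ranged from 6.86 to 7.53 on CD and 6.15 to 6.53 on HFD and fell by 0.96 ± 0.15. Cry2, its partner in repression, ranged from 5.01 to 5.52 on CD and 4.11 to 4.77 on HFD and fell by 0.80 ± 0.16, and Per3 fell by 0.50 ± 0.11 and Bhlhe40, a repressor induced by the clock, by 0.58; the last pair lost its calls without CD-vehicle 3. Arntl (Bmal1), the activator that these repressors oppose, rose by 0.62 ± 0.16, with CD-vehicle 3 lowest and HFD-vehicle 3 highest; its call was lost when any 1 of 6 arrays was left out and in the 10-array fit (adjusted p = 0.153). Members not called included Cry1 at 0.031 ± 0.14, Clock at -0.067 ± 0.11, Nr1d1 at -0.55 ± 0.17 and Nr1d2 at -0.53 ± 0.15. Leaving out 1 array gave 3 to 7 lower calls in this list, with the 3 reached without CD-vehicle 3. The labels do not state the hour at which each mouse was killed.

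Hair follicle genes rose on HFD, with the largest median in the inner root sheath. Of its 14 measured genes 11 rose, none fell, all 14 differences were positive and the median was 2.97, against 1.22% of all genes called higher. Krt71, a type II keratin of the inner root sheath, read 6.87, 7.01, 1.85, 5.77 and 5.13 on the CD-vehicle arrays and 9.93, 9.49, 11.39, 8.80 and 8.69 on the HFD-vehicle arrays. Tchh (trichohyalin), which hardens that sheath, read 7.80, 7.54, 1.84, 6.25 and 6.89 on the CD-vehicle arrays and 9.87, 9.72, 11.40, 9.42 and 9.34 on the HFD-vehicle arrays. In both genes the lowest array was CD-vehicle 3, at a value below the median of its array, and the highest was HFD-vehicle 3, yet the other 4 HFD arrays also lay above the other 4 CD arrays. Krt71 rose by 4.34 ± 0.75 (limma adjusted p = 0.00284), and Tchh rose by 3.89 ± 0.84 (limma adjusted p = 0.0145). The keratins Krt25, Krt27, Krt28 and Krt73 of the same sheath rose by 3.48, 3.94, 2.89 and 2.94, and Krt26 and Krt72, dim on CD, by at least 2.51 and 3.84. Padi3, which citrullinates trichohyalin, rose by 1.98, and Krt74, Gata3 and Tgm3 were not called, at 0.40 ± 0.21, 0.51 ± 0.16 and 1.09 ± 0.30. The count was 11 or 12 with any 1 vehicle array left out and 7 in the fit of the 10 vehicle arrays; the mean of the list was 4.93, 5.13, 3.14, 4.39 and 4.11 on the CD-vehicle arrays and 7.23, 6.73, 9.02, 6.38 and 6.11 on the HFD-vehicle arrays.

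In the hair shaft genes HFD-vehicle 3 stood apart. Of 14 measured shaft genes 6 rose (42.9%, against 1.22% of all genes) and none fell. All 14 differences were positive, with a median of 1.39. Krt35, an early cortex and cuticle keratin, read 5.03, 4.97, 3.39, 4.12 and 4.17 on the CD-vehicle arrays and 7.01, 6.49, 8.34, 5.84 and 5.51 on the HFD-vehicle arrays. Dsg4, the desmosomal cadherin of the hair cortex, read 3.37, 2.71, 2.13, 2.79 and 2.60 on the CD-vehicle arrays and 5.67, 5.03, 7.85, 5.23 and 3.92 on the HFD-vehicle arrays. Both separated the diets, with HFD-vehicle 3 highest; Krt35 rose by 2.30 ± 0.38, and Dsg4, dim on CD, rose by at least 2.60. The late cortex keratins Krt31, Krt86, Krt34, Krt81 and Krt33b were not called, although their differences lay between 1.25 and 1.74. The list mean was 3.81, 3.86, 3.61, 3.82 and 3.74 on the CD-vehicle arrays and 5.23, 4.54, 8.10, 4.47 and 4.23 on the HFD-vehicle arrays. HFD-vehicle 3 stood far above the next HFD array, and the other 4 HFD arrays were also above every CD array. The number of called shaft genes was 3 without CD-vehicle 3, CD-vehicle 5 or HFD-vehicle 1, 6 without HFD-vehicle 3, and 2 in the 10-array fit.

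Keratin-associated proteins build the matrix between the shaft keratins. Of the 38 genes on their list 6 rose (15.8%, against 1.22% of all genes) and none fell. The median difference was 1.49, and 9 of the 38 were dim in both groups. Krtap4-2 read 4.05, 2.62, 1.53, 1.25 and 2.72 on the CD-vehicle arrays and 6.73, 5.28, 10.20, 6.22 and 4.64 on the HFD-vehicle arrays. Prr9, a proline-rich gene that is counted on this list but is not of the keratin-associated protein family, read 4.14, 4.50, 1.53, 3.22 and 3.02 on the CD-vehicle arrays and 7.60, 6.69, 9.47, 6.06 and 6.23 on the HFD-vehicle arrays. Both lay higher on every HFD array, with HFD-vehicle 3 above 9; Krtap4-2, dim on CD, rose by at least 3.68 and Prr9 rose by 3.93 ± 0.54 (limma adjusted p = 0.00349 and 0.000275). Genes of the keratin-associated protein family share repeats, and their features may read more than 1 member. Leaving out an array gave between 3 called members (without CD-vehicle 3, CD-vehicle 5 or HFD-vehicle 1) and 11 (without HFD-vehicle 2 or 5), and 10 without HFD-vehicle 3; the 10-array fit gave 2.

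**Figure D3:**
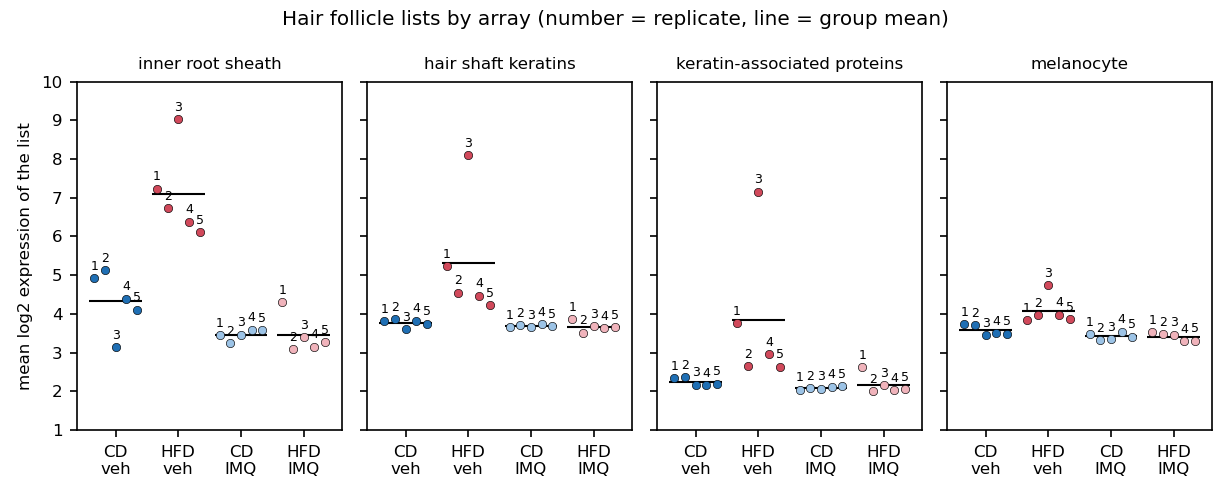
Mean log2 value over the measured genes of 4 hair follicle lists on every array; digits are replicate numbers and lines are group means. HFD-vehicle 3 is highest in all 4 panels, at 9.02, 8.10, 7.16 and 4.73, and the remaining HFD-vehicle arrays lie above all CD-vehicle arrays. Among the vehicle arrays CD-vehicle 3 is lowest for the inner root sheath, at 3.14.

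Of the regulators of hair growth 14.8% rose, near the 15.8% of keratin-associated proteins and below the 78.6% of the inner root sheath. Of all genes 1.22% rose. Among 27 anagen signals and hair transcription factors 4 rose: Dlx3, Lef1, Msx2 and Hoxc13, a homeobox activator of hair keratins. Hoxc13 read 3.31, 2.91, 2.72, 3.01 and 3.05 on the CD-vehicle arrays and 4.11, 3.96, 4.75, 3.35 and 3.71 on the HFD-vehicle arrays, with no overlap, and rose by 0.98 ± 0.19. Dlx3 rose by 1.26 ± 0.29 with overlapping groups, 4.50 to 5.22 on CD and 5.17 to 7.56 on HFD. Shh, Foxn1 and Wnt10b were not called, at 0.063 ± 0.11, 0.84 ± 0.28 and 0.076 ± 0.14. The count ran from 1 without CD-vehicle 5 to 5 and was 2 without CD-vehicle 3, CD-vehicle 4, HFD-vehicle 1 or HFD-vehicle 2; in the 10-array fit no member was called. Of 16 bulge and companion layer genes only Krt75, a keratin of the companion layer, was called; it rose by 2.63 ± 0.47, with an adjusted p of 0.00349 and of 0.0627 in the 10-array fit. Krt15, a bulge and basal keratin, differed by 0.038 (limma adjusted p = 0.971).

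Some pigment and cell cycle genes rose. Of 14 melanocyte genes 3 rose (21.4%, against 1.22% of all genes). Tyrp1, an enzyme of eumelanin synthesis, read 4.61, 4.75, 3.19, 3.63 and 3.62 on the CD-vehicle arrays and 5.88, 5.72, 7.46, 5.57 and 4.84 on the HFD-vehicle arrays, with no overlap between the diets and HFD-vehicle 3 highest, and rose by 1.93 ± 0.34 (limma adjusted p = 0.00312). Dct and Pmel rose by 1.52 and 1.18, and Tyr was not called at 0.83 ± 0.23. Without CD-vehicle 3 or CD-vehicle 5 only 1 melanocyte gene was called, and none in the 10-array fit. Of 34 cell cycle genes 4 rose (11.8%, against the same 1.22%), with a list median of 0.47 and 32 of 34 differences above 0. Plk1, a mitotic kinase, ranged from 3.53 to 4.25 on CD and 4.47 to 5.06 on HFD and rose by 0.77 ± 0.15. The list mean was 4.81, 4.81, 4.03, 4.51 and 4.50 on the CD-vehicle arrays and 4.92, 5.12, 5.07, 4.89 and 4.80 on the HFD-vehicle arrays, lowest on CD-vehicle 3, and the groups overlapped on it. The count was 2 without CD-vehicle 3, CD-vehicle 5, HFD-vehicle 2 or HFD-vehicle 3, 8 without CD-vehicle 1, CD-vehicle 2 or HFD-vehicle 5, and 0 in the 10-array fit.

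Epidermal stress genes also rose on HFD. Of 21 genes of the wound keratin and hyperproliferation list 11 rose (52.4%, against 1.22% of all genes), none fell, and the median was 0.83. Krt16, a keratin of activated epidermis, read 2.33, 2.94, 4.59, 5.15 and 2.27 on the CD-vehicle arrays and 6.77, 6.72, 5.53, 6.63 and 7.11 on the HFD-vehicle arrays. Krt6a, its usual partner, read 4.17, 4.73, 4.38, 4.85 and 3.54 on the CD-vehicle arrays and 6.68, 6.60, 8.74, 6.01 and 6.89 on the HFD-vehicle arrays. Neither overlapped between diets; HFD-vehicle 3 was the lowest HFD array for Krt16 and the highest for Krt6a, a gene that hair follicles also express. Krt16, of which 2 CD values lay below 2.94, rose by 3.09 ± 0.42 and Krt6a rose by 2.65 ± 0.39 (limma adjusted p = 0.000227 and 0.000473). Krt6b rose by 2.50 ± 0.49 with overlapping groups, since HFD-vehicle 3 read 4.27 and CD-vehicle 3 read 5.28. Krt17, shared by activated epidermis and hair follicle, rose by 1.77 ± 0.35 and was highest on HFD-vehicle 3. Serpinb3a, an epidermal protease inhibitor, and the stefin gene Csta3, both dim on CD, rose by at least 1.66 and 0.66, the stefin gene Stfa1 by 1.76, and Tnc (tenascin C), a matrix protein of wounds, by 1.46. The EGF receptor ligands Tgfa and Ereg rose by 0.83 and 0.77, whereas Epgn and Hbegf were not called, at 0.69 ± 0.23 and -0.20 ± 0.18. Between 9 and 12 members were called with 1 array left out, and 5 in the 10-array fit. The hair follicle lists moved with the same groups, and their part in these values was not tested. CD-vehicle 3 and HFD-vehicle 3 were the lowest and highest vehicle arrays for the inner root sheath and hair shaft lists. On these arrays Krt16 read 4.59 and 5.53, and Krt6a read 4.38 and 8.74.

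The cornified envelope genes gave the smallest p-value of the comparison. Sprr1b, a small proline-rich protein cross-linked into the envelope, read 3.24, 3.17, 4.08, 3.71 and 3.26 on the CD-vehicle arrays and 5.68, 5.93, 5.53, 5.68 and 5.51 on the HFD-vehicle arrays. The lowest HFD value, 5.51, stood well above the highest CD value, 4.08, and Sprr1b rose by 2.18 ± 0.21, a 4.52-fold difference (limma adjusted p = 1.02e-05, and 0.000151 in the 10-array fit). Of 18 small proline-rich and LCE3 genes, 10 of which were dim in both groups, 5 rose and none fell, with a median of 0.46. Lce3d read 3.55, 3.28, 4.30, 5.0 and 3.70 on the CD-vehicle arrays and 5.88, 5.17, 6.23, 5.88 and 6.25 on the HFD-vehicle arrays, without overlap. Lce3c and Lce3d, late cornified envelope genes of stressed epidermis, rose by 1.86 and 1.92, Sprr1a by 2.31 and Sprr2d, dim on CD, by at least 1.31; members of these clusters are close copies whose features may cross-hybridise. Lce3e and Lce3f were not called, at 0.70 ± 0.22 and 0.39 ± 0.26. This list had 5 or 6 calls with any 1 array left out and 4 in the 10-array fit.

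Of 35 terminal differentiation and LCE1 genes 11 rose and none fell (median 0.47). Rptn (repetin), an S100-fused precursor of the envelope, read 3.96, 5.12, 3.76, 5.77 and 4.75 on the CD-vehicle arrays and 7.95, 7.38, 6.63, 8.03 and 7.51 on the HFD-vehicle arrays. The groups did not overlap and it rose by 2.83 ± 0.29 (limma adjusted p = 1.16e-05). Casp14, the caspase of cornification, and Cnfn (cornifelin) rose by 1.53 and 1.5. Krt1, a suprabasal keratin, rose by 1.25 ± 0.24 with overlapping groups, 8.61 to 9.59 on CD and 9.20 to 10.96 on HFD, whereas its partner Krt10 was not called at 0.40 ± 0.16, nor was Lor (loricrin) at 0.43 ± 0.21. Tgm1, the transglutaminase of the envelope, rose by 1.03, Ivl (involucrin) by 1.14 and Flg (filaggrin) by 0.99; the call of Ivl was lost when any 1 of 7 arrays was left out, and that of Flg with any 1 of 8. Leaving out 1 array gave 8 to 12 calls, and the 10-array fit 3. Of 19 barrier lipid genes 3 rose, Cers3, a ceramide synthase, by 0.87, the lipid transporter Abca12 by 0.80 and the lipase Lipm by 0.66; this count ran from 1 to 5 with 1 array left out and was 0 in the 10-array fit. Of 12 basal keratinocyte genes Krt14 and Cdh3 (P-cadherin) rose, by 1.02 and 0.87, and neither was called without CD-vehicle 3, HFD-vehicle 1 or HFD-vehicle 3 or in the 10-array fit. Gsdma (gasdermin A) was the only gene called of the 24 of the sebaceous gland list and rose by 1.37 ± 0.18, with values of 5.17 to 6.03 on CD and 6.61 to 7.57 on HFD.

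**Figure D4:**
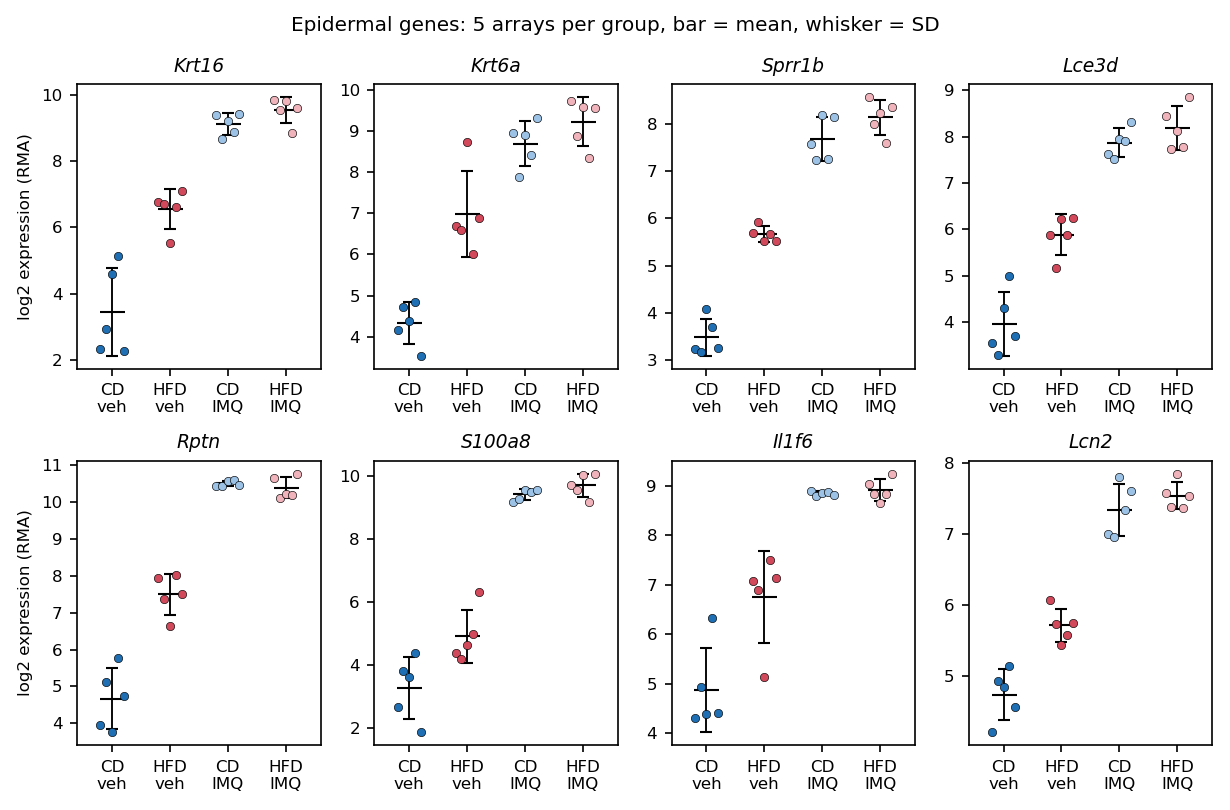
Deposited log2 values of 8 epidermal genes on every array of the 4 groups; bars are means and whiskers 1 SD, and axes do not start at 0. HFD-vehicle lies above CD-vehicle without overlap for Krt16, Krt6a, Sprr1b, Lce3d, Rptn and Lcn2 and with overlap for S100a8 and Il1f6, and both IMQ groups lie above both vehicle groups except for 1 HFD-vehicle value of Krt6a, at 8.74.

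Genes of epidermal alarm and the IL-36 family rose in part. Of 10 S100 genes 4 rose: S100a3, a protein of the hair cuticle, by 2.85, S100a7a (psoriasin-like), dim on CD, by at least 1.97, and the calprotectin subunits S100a8 and S100a9. S100a8 read 2.68, 3.82, 3.62, 4.38 and 1.89 on the CD-vehicle arrays and 4.39, 4.21, 4.65, 4.99 and 6.32 on the HFD-vehicle arrays. S100a8 rose by 1.64 ± 0.37 and S100a9 rose by 1.14 ± 0.29 with overlapping groups and highest values on HFD-vehicle 5, and neither was called without CD-vehicle 1 or CD-vehicle 5 or in the 10-array fit. S100a4, of fibroblasts and leukocytes, fell by 0.70 ± 0.18; its call was lost when any 1 of 6 arrays was left out and in the 10-array fit. Il1f6 (IL-36 alpha) read 4.30, 4.93, 4.39, 6.32 and 4.40 on the CD-vehicle arrays and 7.07, 6.89, 5.14, 7.51 and 7.13 on the HFD-vehicle arrays, overlapping through CD-vehicle 4 and HFD-vehicle 3, and rose by 1.88 ± 0.35 (limma adjusted p = 0.00478). The receptor antagonist Il1f5, Il1f9 (IL-36 gamma), Il1a and Il1rn rose by 1.14, 0.98, 0.92 and 0.64; these made 5 of 26 cytokine genes, the IL-36 family together with IL-23, IL-17 and their receptors, 9 of which were dim in both groups. That count was 1 without CD-vehicle 3, 2 without HFD-vehicle 1, 3 without CD-vehicle 1 or HFD-vehicle 4 and 0 in the 10-array fit. Lcn2 (lipocalin 2), an iron-scavenging antimicrobial protein, ranged from 4.20 to 5.14 on CD and 5.43 to 6.07 on HFD and rose by 0.98 ± 0.18. Saa3, an acute-phase protein, and Il1b, the macrophage cytokine, were not called, at 1.22 ± 0.34 and -0.79 ± 0.43.

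Some genes of fatty acid synthesis fell on HFD. Of 26 genes of fatty acid and triglyceride synthesis 4 fell (15.4%, against 0.956% of all genes) and none rose, with a median of -0.31. Fasn (fatty acid synthase) read 9.82, 9.84, 10.87, 10.65 and 11.05 on the CD-vehicle arrays and 8.68, 8.90, 8.31, 8.39 and 8.70 on the HFD-vehicle arrays. Acaca (acetyl-CoA carboxylase), which makes its substrate, read 7.64, 7.67, 9.0, 8.62 and 8.99 on the CD-vehicle arrays and 6.76, 6.89, 6.46, 6.59 and 7.01 on the HFD-vehicle arrays. In both genes all HFD values were below all CD values, and CD-vehicle 1 and 2 were the lowest of the CD arrays. Fasn fell by 1.85 ± 0.44 and Acaca fell by 1.64 ± 0.39 (limma adjusted p = 0.0277 and 0.0277). Acss2, which makes acetyl-CoA from acetate, and Me1 (malic enzyme), which supplies NADPH, fell by 1.38 and 1.21, also without overlap. The adjusted p-values of these 4 genes were lower in the 10-array fit, at 0.0043, 0.0134, 0.0212 and 0.0226, where 5 members of the list were called; in the fit over 20 arrays none was called without CD-vehicle 3, 4 or 5 or HFD-vehicle 1, 3 or 4, and 2 without HFD-vehicle 2 or 5.

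The steps before and after these enzymes did not reach the threshold. Acly (ATP citrate lyase) had a difference of -0.94 ± 0.28 with no overlap (limma adjusted p = 0.0783). The citrate carrier Slc25a1, Dgat2 of triglyceride assembly and Thrsp, a lipogenic nuclear protein, had -0.91 ± 0.35, -0.77 ± 0.32 and -0.99 ± 0.43. Elovl6, Elovl5 and Acacb were near 0 or not called, at -0.067 ± 0.24, 0.22 ± 0.18 and -0.36 ± 0.23. Scd1, the main delta-9 desaturase and a bright sebaceous gene, read 11.26, 11.19, 11.58, 11.77 and 11.63 on the CD-vehicle arrays and 11.24, 11.14, 10.96, 11.13 and 11.39 on the HFD-vehicle arrays, with a difference of -0.31 ± 0.26. The regulators Srebf1 and Mlxipl (ChREBP) had -0.12 ± 0.22 and -0.26 ± 0.17. None of 19 genes of cholesterol synthesis and uptake was called by limma (median 0.16), and 4 were at an unadjusted p below 0.05. Over all genes 2.18% were called and 14.7% were at that p. Of 25 genes of fatty acid oxidation only Vnn1 was called (4%, against the same 2.18%), at 1.03 ± 0.26. Its call was lost when any 1 of 7 arrays was left out and in the 10-array fit. Ppara was not called, at -0.35 ± 0.17.

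Fat cell genes were called no more often than all genes. None of 29 adipocyte genes was called by limma in either direction, which is near the background of 2.18% of all genes. An unadjusted p below 0.05 was reached by 5 of them, and by 14.7% of all genes. The median was -0.32 with 4 differences above 0. Lep (leptin) read 7.13, 8.08, 8.74, 9.15 and 7.38 on the CD-vehicle arrays and 7.92, 8.73, 7.60, 7.84 and 8.27 on the HFD-vehicle arrays and Adipoq (adiponectin) 5.48, 6.45, 6.11, 7.09 and 6.59 on the CD-vehicle arrays and 6.34, 6.08, 5.56, 6.08 and 6.72 on the HFD-vehicle arrays; in both genes the groups overlapped, with differences of -0.023 ± 0.45 and -0.19 ± 0.33. The list mean was 6.63, 7.07, 7.57, 7.78 and 7.17 on the CD-vehicle arrays and 7.0, 7.23, 6.58, 6.92 and 7.28 on the HFD-vehicle arrays. On CD its lowest arrays, 1 and 2, were also the lowest for Fasn and Acaca; the part of fat cells in those values was not tested. None of 39 respiratory chain genes (median -0.14) and none of 27 skeletal muscle genes (median -0.28) was called by limma. An unadjusted p below 0.05 was reached by 2 and 3 of them, against the same 2.18% and 14.7% of all genes. Of 21 insulin and growth factor genes Irs1 and Igfbp3 fell, by 0.62 and 0.66, and neither was called without CD-vehicle 3, CD-vehicle 5, HFD-vehicle 1, 2 or 3.

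**Figure D5:**
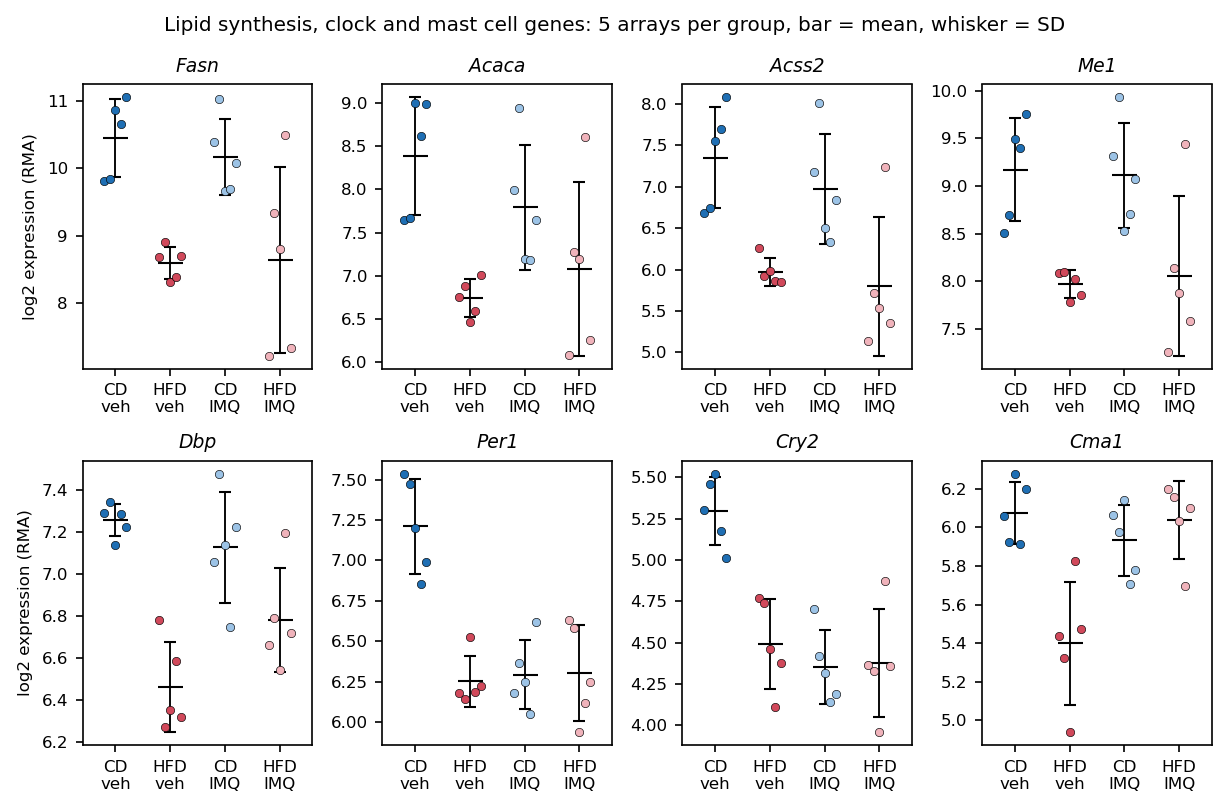
Deposited log2 values of 4 lipid synthesis genes, 3 clock genes and a mast cell gene on every array; bars are means and whiskers 1 SD, and axes do not start at 0. All 5 HFD-vehicle points lie below all CD-vehicle points in every panel, for Dbp at 6.27 to 6.78 against 7.14 to 7.34, and the HFD-IMQ values of Fasn, Acaca, Acss2 and Me1 spread widely.

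The leukocyte lists differed in their share of called genes. Of mast cell genes 18.8% fell, against 0.956% of all genes. Of chemokines 13.3% were called in either direction, against 2.18% of all genes. Of 16 mast cell genes, 5 of which were dim in both groups, 3 fell and none rose: Cma1 (mast cell chymase), Tpsb2 (tryptase) and Hdc (histidine decarboxylase). Cma1 read 6.06, 5.92, 6.28, 5.91 and 6.20 on the CD-vehicle arrays and 5.44, 5.33, 4.94, 5.83 and 5.47 on the HFD-vehicle arrays, without overlap, and fell by 0.67 ± 0.14 (limma adjusted p = 0.0106). Tpsb2 and Hdc fell by 0.75 and 0.77, whereas Cpa3, Kit, Fcer1a and Ms4a2 were not called, at -0.48 ± 0.18, -0.31 ± 0.19, -0.27 ± 0.13 and -0.30 ± 0.17. HFD-vehicle 3 was the lowest array for Cma1, Tpsb2 and Hdc, and 1 member was called without it, without HFD-vehicle 1 or without CD-vehicle 5, and none in the 10-array fit. Of 30 chemokines Ccl7 and Ccl2, which attract monocytes, fell by 1.28 and 0.98, Pf4 fell by 0.69 and Cxcl14, an epithelial chemokine, rose by 1.01 ± 0.21; 1 gene was called lower without CD-vehicle 3 and in the 10-array fit, which called none higher.

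None of 19 T and NK cell genes and none of 14 B cell genes was called by limma, with 2 of each list at an unadjusted p below 0.05. Over all genes 2.18% were called and 14.7% were at that p, so that no call in lists of this size is near the background. Of 28 macrophage genes only Lyz2 was called (3.57%, near the 2.18% of all genes), at -0.50 ± 0.13. That call was lost when any 1 of 7 arrays was left out, and Adgre1 (F4/80) differed by -0.38 ± 0.18. Of 22 neutrophil genes, 12 of them dim in both groups, only S100a8 and S100a9 rose (9.09%, against 1.22% of all genes). Of 34 interferon response genes only Usp18 was called (2.94%, near the 2.18% of all genes), at -0.53 ± 0.14, a call lost when any 1 of 9 arrays was left out. Of 19 genes of lipid-associated macrophages Fabp5, which keratinocytes also express, rose by 0.70, a call lost when any 1 of 7 arrays was left out, and Trem2 differed by -0.075 ± 0.17. Vegfa, the vascular growth factor, was the only 1 of 28 endothelial and vascular genes called; it fell by 0.94 ± 0.22, and the call was lost without CD-vehicle 3, HFD-vehicle 1 or HFD-vehicle 3. In the 10-array fit Lyz2, Usp18 and Fabp5 were not called either (adjusted p from 0.0627 to 0.15), and Vegfa was (0.0364).

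In IMQ skin the same diet contrast, in 10 other mice, called no gene by limma, with 2289 genes (10.3%) at an unadjusted p below 0.05 against 3255 (14.7%) in vehicle skin. Of the 271 genes higher on HFD in vehicle skin, 163 had a positive difference in IMQ skin, with a median of 0.049, and of the 212 lower genes 50 had a negative difference, with a median of 0.13. The sign was the same in both skins for 44.1% of the 483 called genes and for 44.4% of all tested genes. The difference between the diet effects, tested as an interaction, was called for 147 genes (0.663%), of which 109 were among the 483. In all 109 the diet difference in IMQ skin was either weaker in the direction seen in vehicle skin or reversed. Since these genes were selected for their difference in vehicle skin, this is not independent evidence. Nr4a1 differed between diets by 0.0093 ± 0.39 in IMQ skin and its interaction term was -3.24 ± 0.55 (limma adjusted p = 0.00916). For Ccn1, Fos and Dusp1 the diet differences in IMQ skin were 0.37, 0.73 and 0.51, and 12 of the 35 members of the immediate-early list had a called interaction. For Krt71 the interaction of 4.11 ± 1.06 was not called (limma adjusted p = 0.0726), and for Krt16 that of 2.67 ± 0.59 was (0.0387); 7 of the 14 inner root sheath genes had one.

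The called lipid synthesis genes were negative in IMQ skin too. Fasn, Acaca, Acss2 and Me1 had diet differences of -1.53 ± 0.44, -0.71 ± 0.39, -1.17 ± 0.34 and -1.05 ± 0.32 in IMQ skin, none of them called, and interaction terms of -0.32 ± 0.62, -0.93 ± 0.55, -0.21 ± 0.48 and -0.15 ± 0.45, with adjusted p-values from 0.425 to 0.909. The intervals are wide: the SE of these interaction terms is between 0.45 and 0.62, so that the data do not show whether the diet differences in vehicle and IMQ skin are alike.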

How the data were processed

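Total RNA of abdominal skin, 300 ng per array, was labelled and hybridised to 20 Affymetrix arrays in 4 groups of 5 mice. The deposited values are on a log2 scale, made by the authors with RMA in the affy package, per the submitters' processing notes; RMA corrects the background, quantile-normalizes arrays and summarises probes, which can hide a shift shared by most genes. Package versions and batches: not given in the sources used here. Features with 1 gene symbol (23521; 1814 had several and 16010 none) were kept, and a gene with several features was read from the brightest (highest mean of all 20 arrays). Symbols were matched to RefSeq by gene ID for 23328 features, with 0 changed.

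The main test was limma (version 3.58.1, R 4.3.3) with a mean per group over all 20 arrays, empirical Bayes moderation and Benjamini-Hochberg adjustment over 22180 genes, called at an adjusted p below 0.05; it was tested on simulated data. Lists were counted without a set test. Genes are named by a rule: the 12 largest called rises and falls without overlap, up to 4 members per list, called ones first, and a fixed set that includes Lep, Fasn, Krt16 and S100a8; further list members, microRNAs and unlisted genes were picked with their values in view. The comparison, members and lists were chosen with earlier results of these data known. Alternatives were the 10 compared arrays alone, another quantile normalization, median centring, omission of dim genes (mean at or below 2.94), all features, limma-trend, array weights, a replicate block and each array left out. Same-numbered mice of the HFD-vehicle and CD-vehicle groups were checked for pairing. The 5 pairs gave correlations of -0.217 to 0.00798, 0 of them above 0.1, so that no pairing by number was seen. The IMQ mice were not checked, and a shared cage, litter or day was not tested. Promoters and miRNAs came from RefSeq tables (GRCm38.p6), and calculations and plots used Python 3.11.15.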

Additional observations from a re-analysis of the deposited data

Results flagged for a closer look

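Some values stood apart from the rest of their group by Dixon's criterion for a single outlying value, which chance alone meets in about 1 of 20 groups; it was met in 4 of 70 gene groups and 9 of 88 groups of list means. Tchh was low on CD-vehicle 3, at 1.84, and high on HFD-vehicle 3, at 11.4. Fos was low on HFD-vehicle 4, at 3.92, and Ppara high on CD-vehicle 3, at 4.84. HFD-vehicle 3 had outlying list means for hair shaft keratins (8.1), keratin-associated proteins (7.16) and melanocyte genes (4.73), all high, and for the cytokine list that holds the IL-36 family (3.84), chemokines (4.24) and macrophage genes (6.23), all low. The basal keratinocyte mean was low on CD-vehicle 3 (5.39), the lipid-associated macrophage mean high on HFD-vehicle 1 (7.33) and the nerve and Schwann cell mean high on CD-vehicle 2 (3.52).

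The diet difference in vehicle skin differed from that in IMQ skin, by limma's interaction term at an adjusted p below 0.05, for 19 of the 35 leading and followed genes, which were partly chosen for their difference in vehicle skin. Among hair and epidermal keratin genes and Prr9 the term was 3.91 for Krt27, 3.75 for Prr9, 3.99 for Krt72, 3.53 for Krt25, 2.67 for Krt16, 3.28 for Krt26, 3.05 for Krt73 and 3.17 for Krt28. Among immediate-early genes it was -3.24 for Nr4a1, -3.36 for Ccn1, -3.31 for Fos, -3.05 for Dusp1, -2.34 for Atf3, -2.72 for Egr1, -2.51 for Zfp36, -2.28 for Fosb, -2.07 for Errfi1, -2.23 for Btg2 and -2.31 for Ier2.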

How the results depend on the processing

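In vehicle skin, limma called 483 genes on all 20 arrays and 137 on the 10 compared arrays (53 against 271 higher and 84 against 212 lower). With 1 vehicle array left out, the total ran from 231 to 574, the higher calls from 125 to 367 and the lower calls from 106 to 208. Another quantile normalization gave 530, median centring 452, omission of dim genes 588, limma-trend 478, array weights 494 and all features 518. With the replicate block 361 genes were called, and no pairing by number was seen among the vehicle mice. In IMQ skin the count was 0, but 5 after another quantile normalization, 1 each with median centring, dim genes left out and limma-trend, and 0 to 20 with 1 array left out, 20 without HFD-IMQ 4. Interaction calls, 147, ran from 57 to 198 with 1 array left out. Of 185 named genes, Lep turned positive with array weights (0.177), and with 1 array left out lay between -0.264 and 0.241; Trem2 lay between -0.149 and 0.0211. Over the named genes and these settings, 299 values lost and 32 gained the threshold, and 36 of 100 called genes kept it throughout. The count of genes without overlap stayed within 1.5 times under 3 alternatives chosen after seeing the data. These were another quantile normalization, median centring and omission of dim genes. Signal near the background limits dim genes such as many keratin-associated proteins.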

Other observations

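Most called genes, 357 of 483, were in none of the lists. The choice of those named here was made with their values in view. The gap junction genes Gjb2 and Gja1 rose by 2.0 and 1.16, Cldn1 (claudin 1) by 0.99, Jup (plakoglobin) by 0.63, Evpl (envoplakin) by 0.88 and Aqp3, the glycerol and water channel of the epidermis, by 1.38. The kallikreins Klk6 and Klk13 rose by 1.65 and 1.27. The zinc importers Slc39a8, Slc39a10 and Slc39a6 rose by 1.60, 1.17 and 1.01, and the iron exporter Slc40a1 by 1.86. The call of Jup was lost when any 1 of 6 vehicle arrays was left out, that of Slc39a6 with any 1 of 4 and that of Cldn1 with any 1 of 3. Fbp1, an enzyme of gluconeogenesis, read 3.05, 3.59, 2.13, 2.60 and 2.06 on the CD-vehicle arrays and 5.65, 5.28, 6.87, 4.50 and 4.01 on the HFD-vehicle arrays; the groups did not overlap, HFD-vehicle 3 was highest, and Fbp1, dim on CD, rose by at least 2.32 (limma adjusted p = 0.000286). Chil1, a chitinase-like secreted protein, ranged from 3.42 to 4.80 on CD and 5.38 to 5.94 on HFD and rose by 1.80 ± 0.21. Vdr, the vitamin D receptor, rose by 1.30.

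Among the unlisted genes that fell, Cebpd, an inducible C/EBP factor, read 5.39, 5.55, 6.19, 5.20 and 5.05 on the CD-vehicle arrays and 3.63, 3.88, 3.77, 3.71 and 4.30 on the HFD-vehicle arrays, with no overlap, and fell by 1.61 ± 0.17 (limma adjusted p = 1.64e-05). The feedback inhibitors of NF-kB, Nfkbia and Tnfaip3, fell by 0.70 and 0.96, and Zfp36l1 and Zfp36l2, relatives of Zfp36, by 0.95 and 0.68. Ptgs2 (cyclooxygenase 2) fell by 1.38 ± 0.34 with overlapping groups, a call lost when any 1 of 7 arrays was left out and in the 10-array fit (adjusted p = 0.0976), and Has2 (hyaluronan synthase 2), Myc and Mcl1 fell by 1.12, 0.93 and 0.75. Plaur and Adamts1 fell by 0.90 and 0.83 among 20 matrix protease genes, and Gsta3 and Cyp2f2 by 1.20 and 0.78 among 34 genes of oxidative stress and detoxification. Of 34 fibroblast and collagen genes Tnc and Col12a1 rose, the latter by 1.18, and of 21 retinoid genes Dhrs9 by 1.06. Cd83 fell by 1.12 and Epcam rose by 0.85 among 16 Langerhans and dendritic cell genes. The calls of Zfp36l2, Epcam, Cyp2f2 and Col12a1 were lost when any 1 of 3, 4, 7 and 7 arrays was left out, respectively. Of 74 small nucleolar RNA features 5 rose (6.76%, against 1.22% of all genes) and none fell, and the median difference of the 74 was 0.055. These calls, of Snord70, Snord1b, Snord61, Snord43 and Snord110, were lost when any 1 of 4, 6, 7, 6 and 8 vehicle arrays was left out, respectively.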
